A study of Mus musculus with 11 samples.

Results

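Ocm, Pvalb, Calb1 and Calb2 encode 4 small cytosolic proteins that bind calcium through EF hands: oncomodulin, parvalbumin, calbindin and calretinin. They were chosen by gene symbol, with earlier results of these libraries known, and are 4 of the 18667 genes in the FPKM tables (fragments per kilobase, scaled to the mapped fragments of the library, a level corrected for transcript length and depth). All 4 had a mean above 0.1 FPKM and were among the 16169 genes tested. Each library held the RNA of the whole cochlea, the coiled hearing organ, of a 2-month-old mouse. The 5 control libraries, labelled WT, came from Atf6+/+ mice, and the 6 labelled ATF6 Knockout came from their Atf6-/- littermates, which carry a premature stop codon in Atf6 in every cell. Both groups were on a pure C57BL/6J background, so both carry the Cdh23 ahl allele of that strain, which leads to hearing loss at a later age. The labels give no sex, litter or batch for any library, and p-values measure the spread between these libraries.

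An EF hand is a helix-loop-helix fold whose loop holds a calcium ion. Buffers take up calcium that enters a cell and so set how long and how far a calcium signal spreads, whereas sensors change shape and act on other proteins. Oncomodulin is the beta isoform of parvalbumin and is known as the main mobile buffer of mature outer hair cells, the electromotile cells that amplify sound, and mice without it lose hearing early. Parvalbumin is abundant in spiral ganglion neurons and inner hair cells, in fast skeletal muscle and in cerebellar neurons. Calretinin marks inner hair cells and many spiral ganglion neurons, and calbindin is found in hair cells and in many central neurons. ATF6 is a transcription factor released from the endoplasmic reticulum membrane under protein folding stress.

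ATF6 acts on promoters through the endoplasmic reticulum stress element, so the bases before the start sites of the buffers are shown as context for the comparison of genotypes. RefSeq promoter records (GRCm38.p6, an earlier build than the GRCm39 used for expression) matched Ocm with 1 start and Pvalb with 2 starts. Calb1 and Calb2 had no entry in the table used. The 250 bases before the start of Ocm lie at chr5:144050610-144050859 on the minus strand, and those before the first start of Pvalb at chr15:78206401-78206650, also on the minus strand. Both are printed 5′ to 3′ in gene orientation, and capitals mark each copy of CCACG, the end of the element that ATF6 contacts, or of its reverse complement CGTGG.
Ocm: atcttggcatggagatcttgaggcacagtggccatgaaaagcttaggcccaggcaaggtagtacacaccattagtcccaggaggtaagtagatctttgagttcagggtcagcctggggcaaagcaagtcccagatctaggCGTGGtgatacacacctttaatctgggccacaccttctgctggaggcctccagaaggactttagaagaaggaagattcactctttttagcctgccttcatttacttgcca
Pvalb: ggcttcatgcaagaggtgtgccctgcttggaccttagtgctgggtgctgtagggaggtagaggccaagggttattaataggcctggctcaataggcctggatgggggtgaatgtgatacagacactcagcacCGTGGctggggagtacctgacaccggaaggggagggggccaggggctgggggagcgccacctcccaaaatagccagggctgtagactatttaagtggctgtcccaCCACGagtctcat

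The Ocm window held 1 copy, 110 bases before the start, and the Pvalb window 2 copies, 118 and 13 bases before it. These 5 letters are common: 28.3% of 32851 promoter windows of the same length held CCACG on either strand. The window of the second Pvalb start held none. The whole element, CCAAT followed after any 9 bases by the same CCACG, searched on both strands, was absent from all 3 windows and present in 0.113% of all windows. TGACGTGG, another ATF6 motif that overlaps CGTGG, was absent too, against 0.563% of all windows, as was the CCAAT box alone, against 33.8%.

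The level of Atf6 itself was 9.52 ± 1.11 FPKM (SD, n = 5) in controls against 4.27 ± 0.285 FPKM (SD, n = 6) in Atf6-/- cochleae, and the groups did not overlap (log2 fold change -1.13 ± 0.084 SE, limma adjusted p = 5.17e-05). Across all genes, 1592 of 16169 (9.85%) passed the unadjusted rule used for lists below, a limma p no larger than 0.05 and a log2 fold change above 0.05 in size. In Atf6-/- cochleae 724 of them (4.48%) were higher and 868 (5.37%) lower, a balance that turned to 1396 higher and 460 lower when every library was rescaled to a common sum (TPM). Only 11 genes (0.068%) had an adjusted p under 0.05, and the groups did not overlap in 202 (1.25%). Atf6+/+ replicates 3 and 4 stood apart in marker levels: they were lowest in outer hair cell, inner hair cell, hair cell and supporting cell markers and highest in neuron and bone marrow markers. The log2 difference of a named gene is also given without this pair where that ends its call or moves it by over 1.5 times.

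Ocm was higher in Atf6-/- cochleae. In the Atf6+/+ libraries, replicates 1 to 5, it stood at 49.8, 43.3, 16.9, 17.8 and 43.1 FPKM. In the Atf6-/- libraries, replicates 1 to 6, it stood at 103, 35.2, 63.9, 53.1, 106 and 82.9 FPKM. Thus 5 of 6 Atf6-/- libraries lay above every Atf6+/+ library, and only Atf6-/- replicate 2 fell among the controls. The means were 34.2 ± 15.6 FPKM (SD, n = 5) and 74.0 ± 28.3 FPKM (SD, n = 6), a 2.17-fold ratio. On the log2(FPKM + 0.1) scale used for every log2 value here the difference was 1.16 ± 0.36 (SE). Ocm was higher in the Atf6-/- library in 27 of the 30 pairs that can be made across genotypes. Because the genes were proposed with this contrast in view, these values are a description and carry no test.

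The low end of Ocm was held by Atf6+/+ replicates 3 and 4. Without both, the log2 difference was 0.61 ± 0.31 (SE), and without the highest Atf6-/- libraries, replicates 1 and 5, it was 0.86 ± 0.37. Leaving out 1 library at a time gave 0.94 to 1.35. Ocm also varied within each genotype, with a coefficient of variation of 45.7% in Atf6+/+ and 38.2% in Atf6-/- libraries and a 6.28-fold range overall. Its within-genotype SD on the log2 scale, 0.68, was larger than that of 97.4% of the 13611 genes that averaged 1 FPKM or more, whose median was 0.14.

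Pvalb, the alpha parvalbumin, was much more abundant and leaned the other way. The Atf6+/+ replicates 1 to 5 held 688, 616, 799, 817 and 722 FPKM. The Atf6-/- replicates 1 to 6 held 617, 719, 696, 613, 527 and 556 FPKM. The groups overlapped, but the 3 highest libraries were Atf6+/+ and the 3 lowest were Atf6-/- replicates 5, 6 and 4. The means were 729 ± 82.6 (SD, n = 5) and 621 ± 75.3 FPKM (SD, n = 6), a ratio of 0.853 and a log2 difference of -0.23 ± 0.10 (SE). Pvalb was higher in the Atf6-/- library in 5 of 30 pairs. Without Atf6+/+ replicates 3 and 4, its 2 highest libraries, the difference shrank to -0.13 ± 0.11.

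Calb1 differed little in mean and was spread by a pair of libraries. The Atf6+/+ replicates 1 to 5 held 38.9, 38.0, 30.2, 32.5 and 29.0 FPKM of this calbindin mRNA. The Atf6-/- replicates 1 to 6 held 23.3, 37.8, 36.5, 31.8, 22.3 and 32.03 FPKM. Atf6-/- replicates 1 and 5 lay below every other library, and the remaining 4 lay inside the Atf6+/+ range. The means were 33.7 ± 4.50 (SD, n = 5) and 30.6 ± 6.51 FPKM (SD, n = 6), with a log2 difference of -0.16 ± 0.14 (SE). Without those 2 libraries the difference turned to 0.04 ± 0.10, so its sign rested on them.

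Calb2, calretinin, was the most abundant of the 4 and the least variable. Its Atf6+/+ replicates 1 to 5 held 1646, 1687, 1847, 2012 and 1905 FPKM. Its Atf6-/- replicates 1 to 6 held 2025, 1858, 1729, 1714, 1802 and 1659 FPKM. Both genotypes covered nearly the same range, with 15 of 30 pairs higher in the Atf6-/- library. The means of 1819 ± 152 (SD, n = 5) and 1798 ± 131 FPKM (SD, n = 6) differed by -0.02 ± 0.09 (SE) on the log2 scale. The sign of this small difference was not stable, since it was 0.04 after rescaling to TPM and also without Atf6+/+ replicates 3 and 4.

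**Figure D1:**
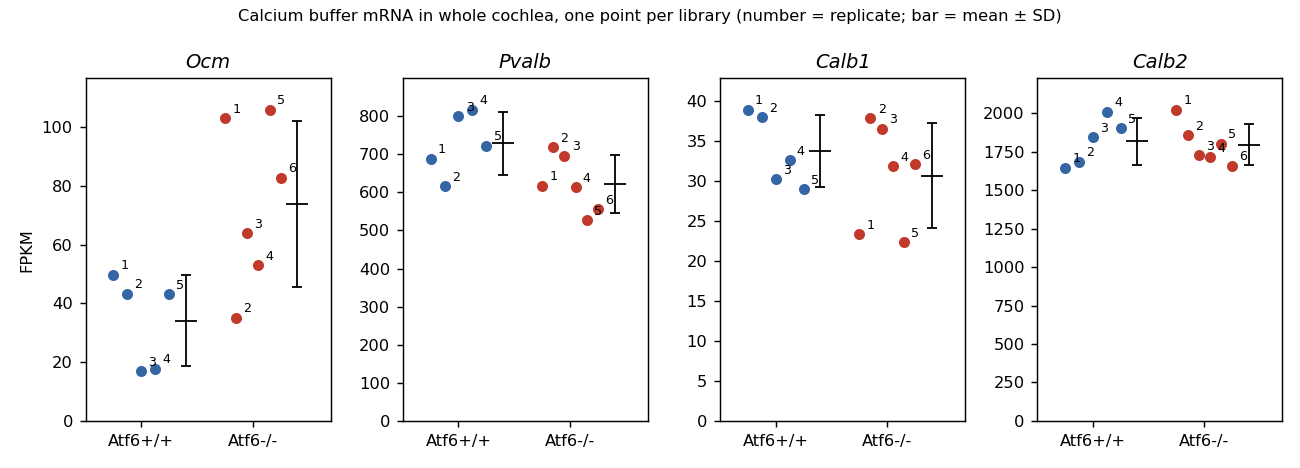
FPKM of Ocm, Pvalb, Calb1 and Calb2 in each whole-cochlea library, Atf6+/+ in blue and Atf6-/- in red, with the replicate number beside each point and the mean ± SD as a black bar. For Ocm 5 of 6 Atf6-/- points lie above all Atf6+/+ points, and replicate 2 lies among them. The genotypes overlap for all 4 genes.

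FPKM is corrected for transcript length, so the levels of the 4 genes can be ordered. By mean level Calb2 ranked 14 and Pvalb 64 of 18667 genes, and Ocm ranked 1552 and Calb1 2897. Calb2 exceeded Pvalb in 11 of 11 libraries, by 2.50-fold in the Atf6+/+ and 2.89-fold in the Atf6-/- means. Pvalb exceeded Ocm in 11 of 11 libraries, and the ratio of their means was 21.3 in Atf6+/+ and 8.40 in Atf6-/- cochleae. Within single libraries this ratio ran from 4.97 in Atf6-/- replicate 5 to 47.3 in Atf6+/+ replicate 3. Ocm and Calb1 did not differ beyond their spread in Atf6+/+ cochleae, where Ocm was higher in 3 of 5 libraries and the ratio of means was 1.01. In Atf6-/- cochleae Ocm was higher than Calb1 in 5 of 6 libraries, with a ratio of means of 2.42.

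The 4 buffers did not vary together from library to library. Ocm and Pvalb ran in opposite directions over the 11 libraries, with a Pearson r of -0.87 and a Spearman rho of -0.84. The relation had the same sign without Atf6+/+ replicates 3 and 4 (r = -0.74), after the genotype means were removed (r = -0.79), and within each genotype (r = -0.84 in Atf6+/+ and -0.76 in Atf6-/-). Ocm and Calb1 gave an r of -0.43 (rho -0.35) over all libraries with -0.77 without Atf6+/+ replicates 3 and 4, 0.51 within Atf6+/+ and -0.84 within Atf6-/- libraries, and the difference between genotypes was not tested. Ocm and Calb2 (r = -0.26, rho -0.24) changed sign to 0.20 when the same 2 Atf6+/+ libraries were left out. Pvalb and Calb1 had an r of 0.40 (rho 0.18), with 0.09 without Atf6-/- replicates 5 and 6, -0.67 within Atf6+/+ and 0.72 within Atf6-/- libraries. The other pairs had r of 0.43 (rho 0.54; Pvalb and Calb2) and -0.52 (rho -0.53; Calb1 and Calb2). These coefficients, 6 pairs in all, describe 11 libraries that share dissection, depth and tissue makeup, and were not tested.

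Since oncomodulin is an outer hair cell protein, its level was set beside the 11 outer hair cell markers listed for this purpose, none of them Ocm. Their mean level, the mean log2(FPKM + 0.1) over the list, spanned 1.41 to 2.35 in Atf6+/+ libraries against 1.75 to 2.27 in Atf6-/- libraries, and their summed level spanned 76.9 to 109 FPKM against 85.9 to 97.4 FPKM. None was at 0 in every library. Ocm followed this mean level with an r of 0.91 (rho 0.83), 0.73 without Atf6+/+ replicates 3 and 4, and 0.89 and 0.97 within the Atf6+/+ and Atf6-/- groups. By single marker, 10 of 11 were positively related to Ocm, with a median r of 0.68. Over all libraries the r was 0.39 (rho 0.42) with 22 general hair cell markers, of which 20 were positive singly, 0.57 (rho 0.36) with inner hair cell markers, 0.65 (rho 0.45) with supporting cell markers and -0.04 (rho 0.15) with vestibular markers. Within the Atf6+/+ libraries these markers followed Ocm too, with r of 0.82, 0.92, 0.96 and 0.83 in the same order, in a group where replicates 3 and 4 were low in Ocm and in these markers. Within the Atf6-/- libraries the r were -0.25, -0.02, -0.08 and -0.48. Without Atf6+/+ replicates 3 and 4 the pooled r was -0.17 with inner hair cell and -0.08 with supporting cell markers. The neuron markers had an r of -0.83 (rho -0.52) with Ocm, and -0.36 without the same pair. Outer hair cell markers were not alone in following Ocm: 7 slow and cardiac muscle markers had an r of 0.83 (rho 0.82) and 0.90 without Atf6+/+ replicate 3 and Atf6-/- replicate 4. Within the genotypes it was 0.97 in Atf6+/+ and 0.35 in Atf6-/- libraries. Of these muscle markers Myl2, Myl3 and Myoz2 were low, averaging 0.33, 0.53 and 0.14 FPKM, whereas Atp2a2 averaged 112 FPKM. Differences between lists or genotypes were not tested.

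Slc26a5, which encodes prestin, the motor protein of outer hair cells, was close to Ocm in its pattern (r = 0.92). It was low in whole cochlea, at 1.17, 1.03, 0.50, 0.24 and 0.56 FPKM in the Atf6+/+ replicates 1 to 5 and 2.72, 0.51, 1.01, 0.97, 4.11 and 2.25 FPKM in the Atf6-/- replicates 1 to 6. The highest 3 libraries were Atf6-/- replicates 5, 1 and 6, which were also the highest 3 for Ocm. Its log2 difference of 1.197 ± 0.492 (SE) passed the unadjusted rule but not the adjusted one (limma adjusted p = 0.475). At this low level it depended on the settings, with 0.69 at a pseudocount of 1 FPKM and 0.58 with the bone marrow level as a covariate. The call was lost when any of Atf6+/+ replicates 3, 4 and 5 or Atf6-/- replicates 1, 5 and 6 was left out singly, and without Atf6+/+ replicates 3 and 4 together, where the difference was 0.75. Ocm taken relative to Slc26a5, library by library, differed by less than the spread between replicates: the log2 ratio was 5.43 ± 0.46 (SD, n = 5) in Atf6+/+ and 5.39 ± 0.47 (SD, n = 6) in Atf6-/- libraries.

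Relative to other outer hair cell genes Ocm was higher in Atf6-/- cochleae. Relative to Lmod3, a leiomodin, the log2 ratio was 6.32 ± 0.29 (SD, n = 5) and 6.82 ± 0.22 (SD, n = 6). This was the only reference compared for which the genotypes did not overlap. Lmod3 was singled out for that after the values were seen, so the separation carries no test. The difference of 0.50 was 0.36 without Atf6+/+ replicates 3 and 4. Lmod3 was itself low, at most 1 FPKM in every library. Relative to Strc, which encodes the stereocilia protein stereocilin, Ocm was 0.65 higher on the log2 scale (26 of 30 pairs). Relative to the mean of all 11 markers it was 0.83 higher, from 3.16 ± 0.44 (SD, n = 5) to 3.99 ± 0.42 (SD, n = 6), with 27 of 30 pairs in that direction. The log2 difference of Ocm, 1.16, lay beside 1.197 for Slc26a5 and 0.33 for the list mean. Without Atf6+/+ replicates 3 and 4 these were 0.61, 0.75 and 0.08, and Ocm relative to the list mean was 0.53 higher.

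Calb1 was related to the vestibular and otolith markers with an r of 0.66 (rho 0.51) and to the general hair cell markers with an r of 0.50 (rho 0.53). The libraries lowest in Calb1, Atf6-/- replicates 1 and 5, were the highest in Ocm and Slc26a5. The vestibular and otolith level was -1.03 in Atf6-/- replicate 5 and 0.48 in replicate 1, the latter above Atf6+/+ replicates 3 and 4. It was highest, 2.05, in Atf6-/- replicate 4, where Calb1 was at 31.8 FPKM. The part of these markers in the Calb1 level was not tested.

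**Figure D2:**
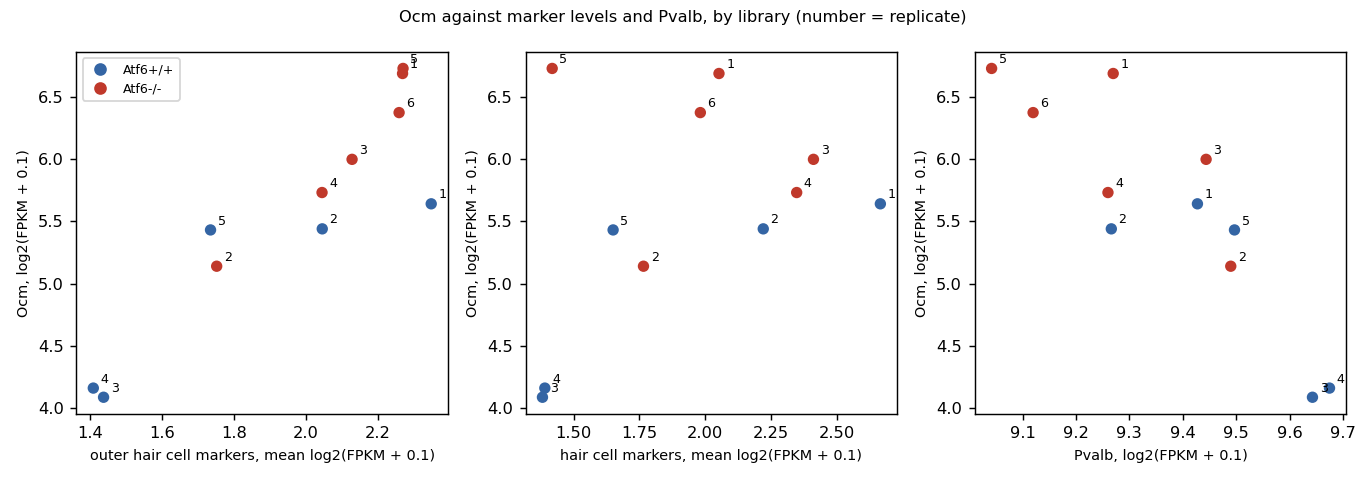
Ocm level, log2(FPKM + 0.1), in each library against the mean log2 level of 11 outer hair cell markers (left), of 22 general hair cell markers (centre) and against Pvalb (right), Atf6+/+ in blue and Atf6-/- in red with replicate numbers. Ocm rises with the outer hair cell markers (r = 0.91), has an r of 0.39 with the general hair cell markers (0.82 within Atf6+/+ and -0.25 within Atf6-/- libraries) and runs against Pvalb (r = -0.87).

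Pvalb was related to the 13 neuron markers with an r of 0.69 (rho 0.41), with 12 of 13 single markers positive. The r fell to 0.17 without Atf6+/+ replicates 3 and 4, and was 0.79 within Atf6+/+ and 0.49 within Atf6-/- libraries. With the outer hair cell markers the r was -0.81 (rho -0.74), and -0.60 without the same pair. Fast skeletal muscle and cerebellum are rich in parvalbumin. With the cerebellum and brainstem markers the Pvalb r was 0.46 (rho 0.39) over all libraries, 0.71 with genotype means removed, 0.16 within Atf6+/+ and 0.96 within Atf6-/- libraries. With the fast skeletal muscle markers it was 0.28 (rho 0.48) over all, -0.43 within Atf6+/+ and 0.59 within Atf6-/- libraries. The part of either tissue in the Pvalb level was not tested. Atf6-/- replicate 3 had the highest summed fast skeletal muscle marker level, 115 FPKM against 45.0 to 56.0 FPKM in Atf6+/+ libraries, and its Pvalb level of 696 FPKM was inside the Atf6+/+ range. Calb2 was negatively related to the general hair cell markers (r = -0.64, 0 of 22 markers positive), the supporting cell markers (r = -0.70) and the inner hair cell markers (r = -0.65). In the same order the r were -0.91, -0.82 and -0.87 within Atf6+/+ libraries, and -0.26, -0.58 and -0.23 within Atf6-/- libraries. The Calb2 r of 0.49 with the neuron markers fell to 0.15 without Atf6+/+ replicates 3 and 4. Because each library pooled all cells of a cochlea, fewer cells of a type and less RNA per cell cannot be told apart.

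Marker levels of some other tissues also differed between genotypes, in part through Atf6+/+ replicates 3 and 4. All 22 bone marrow markers (blood and marrow genes such as the hemoglobin gene Hba-a1) were lower in Atf6-/- cochleae, 13 of them past the unadjusted rule. Their summed level spanned 5399 to 46664 FPKM in Atf6+/+ libraries against 2969 to 9736 FPKM in Atf6-/- libraries, and none was at 0 in every library. Their mean log2 level differed by -1.22 between genotypes, and by -0.68 without Atf6+/+ replicates 3 and 4. Ocm was negatively related to their mean level (r = -0.81, rho -0.73, and -0.67 with genotype means removed). With that level as a covariate the Ocm difference was 0.46 ± 0.36 (SE). The neuron markers, at a summed level of 3963 to 4918 FPKM in Atf6+/+ and 3915 to 4769 FPKM in Atf6-/- libraries, had 2 of 13 genes below Atf6+/+ at the unadjusted rule, Stmn2 and Pou4f1. Their log2 differences of -0.25 and -0.22 were both -0.09 without Atf6+/+ replicates 3 and 4 and no longer passed, and leaving out any 1 of 4 and of 5 libraries, respectively, also ended the call. The mean log2 level of the neuron list differed by -0.17, and by 0.03 without the same pair. That of the slow and cardiac muscle list differed by 0.17, and by 0.09 without the pair. In that list 1 of 7 tested genes passed the unadjusted rule, Myl2, with means of 0.22 and 0.42 FPKM and a log2 difference of 0.76. Whether marrow, neuron or muscle content contributed to the Ocm difference was not tested beyond these values.

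Among markers of the other cochlear cells, 2 of 12 supporting cell genes (16.7%, against 9.85% of all genes) passed the unadjusted rule, both higher in Atf6-/- cochleae. The mean log2 level of the supporting cell list differed by 0.25, and by -0.07 without Atf6+/+ replicates 3 and 4. Fgfr3, a growth factor receptor of supporting cells, rose from 6.996 ± 1.41 (SD, n = 5) to 10.4 ± 0.844 FPKM (SD, n = 6) without overlap between the groups, and its log2 difference of 0.59 was 0.37 without Atf6+/+ replicates 3 and 4. Epyc, a small proteoglycan, rose from 77.3 ± 33.0 to 135 ± 48.6 FPKM, but its log2 difference went from 0.86 to 0.37 without the same pair and no longer passed. None of the 22 general hair cell, 7 inner hair cell or 7 vestibular markers tested passed the rule. Their median log2 differences were 0.15, 0.09 and -0.17, against -0.01 over all genes tested. Without Atf6+/+ replicates 3 and 4 their mean log2 levels differed by -0.18, -0.19 and -0.64.

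**Figure D3:**
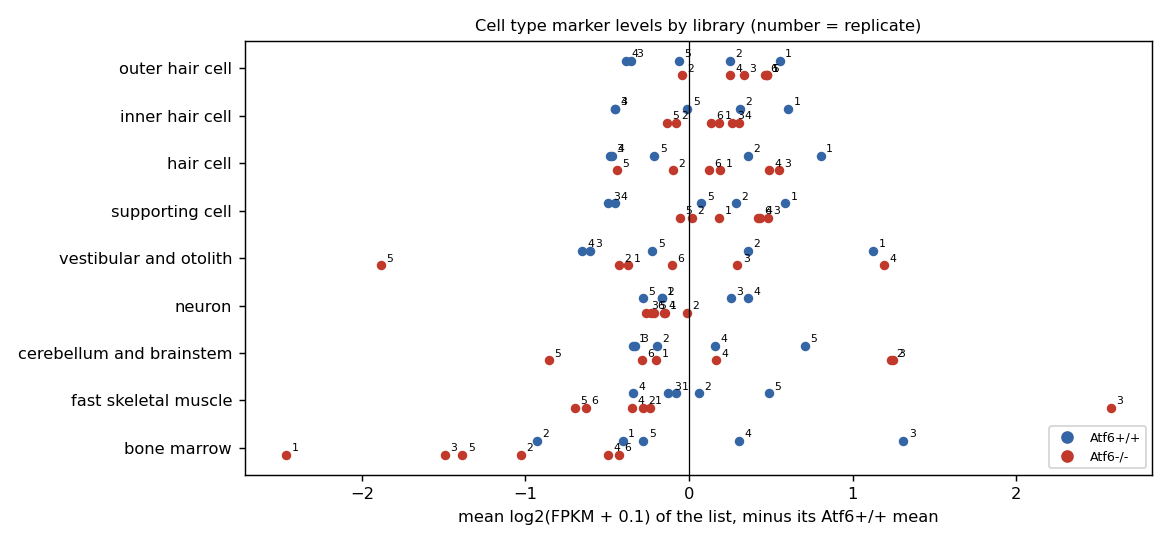
Mean log2(FPKM + 0.1) of each cell type marker list but slow and cardiac muscle in each library, minus the mean of the Atf6+/+ libraries, with Atf6+/+ in blue, Atf6-/- in red and replicate numbers. Atf6+/+ replicates 3 and 4 are lowest in outer hair cell markers and highest in neuron markers, Atf6-/- replicate 3 is highest in fast skeletal muscle markers, and the Atf6-/- libraries lie low in bone marrow markers.

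The 4 buffers belong to a wider group of EF-hand proteins, of which 52 other genes were listed and 44 tested. Of these, 5 were lower and 1 higher in Atf6-/- cochleae at the unadjusted rule, 13.6% against 9.85% of all genes, and none had a limma adjusted p under 0.05, nor did any gene of the marker and calcium lists described here. In all, 35 of 44 lay below 0 and the median log2 difference was -0.08, against 8845 of 16169 genes below 0 and a median of -0.01 over all genes tested, which TPM rescaling moved to 0.04. Hpca, hippocalcin, a neuronal calcium sensor, fell from 8.37 ± 0.629 (SD, n = 5) to 6.34 ± 0.784 FPKM (SD, n = 6) without overlap. Kcnip4, an auxiliary subunit of A-type potassium channels, had a log2 difference of -0.27 ± 0.08 (SE) from 16.9 ± 1.19 FPKM in controls, and Cetn3, a centrin of centrioles, fell from 23.0 ± 1.54 to 19.6 ± 1.65 FPKM. Guca1a, a guanylate cyclase activator, fell without overlap too but was below 1 FPKM in every library.

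Efhd1, a mitochondrial EF-hand protein, was the 1 of 9 EF-hand genes above 0 that passed the unadjusted rule, from 58.8 ± 12.1 (SD, n = 5) to 81.2 ± 15.9 FPKM (SD, n = 6). It was highest in Atf6-/- replicates 5 and 6, at 110 and 88.1 FPKM, and lowest in Atf6+/+ replicates 3 and 4, at 44.6 and 47.6 FPKM. Without that Atf6+/+ pair its log2 difference went from 0.47 to 0.25 and no longer passed.

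In the S100 family, small EF-hand proteins that work as pairs, 4 of 13 tested genes (30.8%) passed the unadjusted rule, all lower in Atf6-/- cochleae, and none passed the adjusted one. Of these S100a8 and S100a9, the subunits of calprotectin of neutrophils, had means of 302 ± 331 and 367 ± 376 FPKM (SD, n = 5) in controls, against 80.6 ± 75.5 and 104 ± 105 FPKM (SD, n = 6) in Atf6-/- libraries, and both are also bone marrow markers. Neither passed without Atf6+/+ replicate 3 or without replicate 4, S100a9 was also lost without Atf6-/- replicate 1 or 5, and their log2 differences of -1.72 and -1.74 were both -0.82 without the Atf6+/+ pair. S100a6 fell from 85.8 ± 23.7 to 58.6 ± 5.97 FPKM and S100a4 from 14.5 ± 5.71 to 8.95 ± 0.473 FPKM. Without Atf6+/+ replicates 3 and 4 their log2 differences went from -0.51 to -0.28 and from -0.60 to -0.26, and S100a4 no longer passed. The abundant S100a1, at 945 ± 314 and 1197 ± 214 FPKM, and S100b, at 741 ± 193 and 787 ± 203 FPKM, did not pass. In the CREC family, EF-hand proteins of the secretory pathway, 1 of 7 passed: Nucb2, nucleobindin, at 9.71 ± 0.687 and 10.7 ± 0.717 FPKM, a call lost without any 1 of 8 libraries and without Atf6+/+ replicates 3 and 4 together.

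Among 20 tested calcium pumps, exchangers and uniporter subunits, 1 was higher and 3 lower at the unadjusted rule (20%, against 9.85% of all genes). The lower ones were subunits of the mitochondrial calcium uniporter. Smdt1, its EMRE subunit, fell from 168 ± 16.8 (SD, n = 5) to 112 ± 29.2 FPKM (SD, n = 6) without overlap. Mcub fell from 9.85 ± 1.62 to 7.51 ± 0.586 FPKM (log2 difference -0.38, or -0.24 without Atf6+/+ replicates 3 and 4), and Mcu, the pore, from 10.7 ± 0.822 to 9.73 ± 0.397 FPKM. Slc8b1, the mitochondrial sodium-calcium exchanger, rose from 9.14 ± 0.607 to 10.1 ± 0.556 FPKM, but this call and that of Mcu were lost without any 1 of 9 and 7 libraries, respectively, and both without Atf6+/+ replicates 3 and 4 (0.10 and -0.08). The reticular pump gene Atp2a2 held 112 FPKM in both genotypes.

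Of 14 genes for calcium entry into hair cells and its effectors, 2 (14.3%) were higher and none lower at the unadjusted rule, against 9.85% of all genes. In all, 12 of 14 lay above 0, against 7324 of 16169 genes tested. Their mean log2 level differed by 0.19, and by -0.06 without Atf6+/+ replicates 3 and 4. Several, among them Chrna9, Chrna10, Kcnn2 and Tmc1, are also in the hair cell marker lists. The 2 genes at the rule were P2rx2, an ATP-gated channel, at 46.8 ± 10.9 (SD, n = 5) and 62.4 ± 6.93 FPKM (SD, n = 6), and Kcnn2, the small-conductance calcium-activated channel of outer hair cells, at 11.3 ± 1.07 and 13.2 ± 1.06 FPKM. Without Atf6+/+ replicates 3 and 4, no gene of the list passed, and their log2 differences went from 0.44 to 0.19 and from 0.23 to 0.13. Otof, otoferlin, the calcium sensor of inner hair cell exocytosis, did not pass, at 16.5 ± 10.1 and 18.5 ± 5.79 FPKM.

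The genes most like each buffer were sought among 13610 candidates averaging 1 FPKM or more, by Pearson r over the 11 libraries, and the leading 5 are named. For Ocm these were Prss36 (r = 0.98), Bspry, Rbm47, Ccdc69 and Chmp4c (r = 0.96). Prss36 stood at 50.8 ± 13.9 FPKM (SD, n = 5) in controls against 79.6 ± 17.3 FPKM (SD, n = 6) without Atf6. With genotype means removed, the leading genes included Pxdc1, Arhgef16, Zfp185 and Bspry, with r of 0.97 to 0.98.

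For Pvalb the most alike were Uqcrh (r = 0.98), Tagln3, Ndufb2, Cox7a2 and Prdx3 (r = 0.96). Of these Uqcrh, Ndufb2 and Cox7a2 encode respiratory chain subunits, Prdx3 a mitochondrial peroxiredoxin and Tagln3 a neuronal transgelin. Uqcrh stood at 229 ± 16.5 FPKM (SD, n = 5) in controls against 201 ± 16.6 FPKM (SD, n = 6) without Atf6. With genotype means removed the leading 5 were Uqcrh, Cox6b1, Ccdc28a, Prdx3 and Tagln3.

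For Calb1 the most alike were 4430402I18Rik (r = 0.92), Nos1ap, Zmat4, Tll1 and Spock1 (r = 0.89). With genotype means removed, Whrn, which encodes the stereocilia scaffold whirlin, came first (r = 0.96), followed by Mmd2, Sfxn5, Nos1ap and 4430402I18Rik. For Calb2 the likeness was weaker, with r of 0.86 to 0.88 for Nrde2, Nudt6, H1f10, Jun and Tinf2. No gene was among the named genes of more than 1 buffer. These leading values were picked as the highest of many over 11 libraries, and they describe likeness of pattern only.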

How the data were processed

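RNA of whole cochleae was sequenced as stranded mRNA libraries on the DNBSEQ platform. The authors aligned reads with HISAT2 2.0.4 to GRCm39 and computed the deposited FPKM values, given to 2 decimals, with RSEM (version 1.2.12 in the submitters' processing notes, another version in the paper's methods). No read counts were analysed here, which leaves the depth behind each value and its counting error unknown. The FPKM of a library summed to 462005 to 537926. Overlapping reads of near-identical genes may be split by RSEM.

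Columns were mapped to samples by title, with 0 unmapped, and joined by gene identifier. Genes averaging 0.1 FPKM or more were fitted on log2(FPKM + 0.1) with genotype alone, two-sided, by limma 3.58.1 with a mean-variance trend in R 4.3.3, with Benjamini-Hochberg adjustment over 16169 genes. The fit was tested on simulated data. Group means, coefficients and marker levels were computed with Python 3.11.15, pandas 2.3.3 and numpy 2.4.6. A list's level in a library is the mean log2 value of its tested genes. Correlations use the same log2 values.

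The 4 genes and the 15 gene lists were chosen with earlier results of these data known. Named genes are the 4 buffers and Atf6, in each calcium list up to 6 genes at the unadjusted rule and the 3 most abundant, in each marker list the first 3 and up to 3 at the rule, and the 5 most alike genes per buffer. Lmod3 was singled out after their values were seen. Alternatives covered pseudocount, filter, scaling, variance estimate, a replicate block, covariates and left-out libraries. Promoter windows came from a RefSeq table of GRCm38.p6, and motifs were searched on both strands. A few genes that the rule for named genes selects are not reported here.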

Additional observations from a re-analysis of the deposited data

Results flagged for a closer look

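Of 166 sets of values tested for a library far from the rest of its group, 16 held one. The chance rate of about 1 in 20 assumes independent, normally distributed values. These sets share genes and libraries and mostly hold FPKM, so no excess over chance is claimed. None of the 16 was Ocm, Pvalb, Calb1 or Calb2. Neutrophil genes accounted for 4: S100a8 stood at 874 FPKM in Atf6+/+ replicate 3, against 68.3 to 301 FPKM in the other Atf6+/+ libraries, and Atf6-/- replicate 4 was high within its group in S100a8 (229 FPKM), S100a9 (309 FPKM) and Camp (121 FPKM). The mean log2 level of the S100 family was also high in Atf6-/- replicate 4, at 5.67 against 5.14 to 5.30 in the other Atf6-/- libraries. The hemoglobin gene Hba-a1 reached 19706 FPKM in Atf6+/+ replicate 5.

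Muscle genes set Atf6-/- replicate 3 apart, with Acta1 at 9.59 FPKM, Myh1 at 3.04 FPKM and Myh2 at 0.41 FPKM, and with a mean log2 level of the fast skeletal muscle list of 2.51 against -0.78 to -0.32 in the other Atf6-/- libraries. The Pvalb difference with that muscle level as a covariate was -0.24 ± 0.10 (SE). Genes of neighbouring tissue stood out in single Atf6-/- libraries: the cerebellar genes Pcp2 in replicate 3 (2.74 FPKM) and Gabra6 in replicate 2 (3.59 FPKM), and the otoconial gene Oc90 in replicate 4 (1.56 FPKM). Fgf8, an inner hair cell gene, was at 0.16 FPKM in Atf6-/- replicate 6 and at most 0.04 FPKM in the other Atf6-/- libraries. Myh7 was listed at 0 in Atf6+/+ replicate 4 and at 0.03 FPKM in Atf6-/- replicate 1, differences of a few hundredths in values given to 2 decimals.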

How the results depend on the processing

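No called result changed direction, whereas Calb1 (to 0.04 without Atf6-/- replicates 1 and 5) and Calb2 (between -0.06 and 0.04) crossed 0 within the spread between replicates. Of the values that answer a comparison, 222 stayed within the spread or within 1.5 times of the reported count and 31 moved; of the calls of single genes, 518 held and 101 were lost. With the bone marrow level as a covariate the Ocm log2 difference moved to 0.46, and 322 genes were higher, 535 lower and 6 at the adjusted p, with 1 call left in the S100 and CREC families (S100a8 and S100a9 are themselves part of that level), 2 among pumps and exchangers and 0 among entry genes. With muscle as the covariate 2 pump calls were left. Rescaling to a common sum (TPM) shifted the median of all genes from -0.01 to 0.04 and gave 1396 higher and 460 lower genes. Chosen after seeing the data, leaving out Atf6+/+ replicates 3 and 4 gave 431 higher and 570 lower genes, with 1, 2 and 0 calls in the same 3 groups of lists, and leaving out Atf6-/- replicates 1 and 5 gave 506 lower genes, 5 at the adjusted p and 2 calls in the S100 and CREC families.

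Leaving out 1 library at a time gave log2 differences of 0.94 to 1.35 for Ocm, -0.29 to -0.19 for Pvalb, -0.22 to -0.071 for Calb1 and -0.05 to 0.02 for Calb2. Over all genes it gave 524 to 871 higher, 620 to 994 lower and 8 to 13 at the adjusted p. The calls ran from 5 to 9 among EF-hand genes, from 2 to 7 in the S100 and CREC families (2 without Atf6+/+ replicate 3 or 4, 3 without Atf6-/- replicate 1 or 5), from 2 to 5 among pumps and exchangers (2 without Atf6+/+ replicate 3 or without Atf6-/- replicate 1, 3, 4 or 6) and from 2 to 4 among entry genes (4 without Atf6+/+ replicate 1).

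Replicate numbers did not pair the libraries: deviations of same-numbered libraries had correlations of -0.21 to 0.12, and only number 1 matched its own best. A replicate block gave log2 differences of 1.11, -0.20, -0.17 and 0.0064 for Ocm, Pvalb, Calb1 and Calb2, with 420 genes higher, 4 at the adjusted p and 2 pump calls. Guca1a, Slc26a5 and Lmod3 were low enough that depth, which is unknown here, limits them.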
